A study of Homo sapiens with 9 samples.

Results

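The dual-specificity MAP kinase phosphatases are enzymes that remove phosphate from both the threonine and the tyrosine of the MAP kinase activation loop. The genes were chosen by name, DUSP1, DUSP2, DUSP4, DUSP5, DUSP6, DUSP7, DUSP8, DUSP9, DUSP10 and DUSP16, and all 10 were found once each among the 58735 genes measured. RNA came from MIA PaCa-2, an established human pancreatic cancer cell line, labelled as wild-type in genotype and kept in medium with fetal bovine and horse serum. Cells were exposed for 24 h to 1 μM SCH772984, an inhibitor of the ERK kinases, to 1 μM compound 1, an inhibitor of the kinases TBK1 and IKKε, or to 0.1% DMSO, the vehicle. There were 3 libraries per condition, all from the same cell line, so the values describe this line at a single dose and time for each inhibitor. The comparisons ask what ERK inhibition and TBK1/IKKε inhibition do to the phosphatase transcripts, and whether the inhibitors leave them at different levels.

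MAP kinases pass signals from the cell surface to the nucleus and are switched off when a phosphatase acts on them. ERK is the arm that answers mainly to growth factors, while JNK and p38 answer mainly to stress and cytokines. The phosphatases differ in which arm they act on and where they sit. DUSP6, DUSP7 and DUSP9 are cytoplasmic and prefer ERK, and DUSP5 is a nuclear enzyme that acts on ERK. DUSP8, DUSP10 and DUSP16 prefer JNK and p38. DUSP1, DUSP2 and DUSP4 are nuclear and act on ERK as well as on JNK or p38. Several of the ERK-directed enzymes, DUSP6 above all, are known as transcriptional outputs of ERK itself and so form a negative feedback loop.

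The 10 genes encode the same catalytic site, and the codons around it show how alike the family's transcripts are there. The coding sequence of 1 GENCODE transcript per gene is given 5′ to 3′ over 24 bases, with the codons of the catalytic cysteine and of the arginine that binds phosphate in capitals. The first 4 lines are the ERK-selective genes, the next 3 the JNK/p38-directed genes and the last 2 the nuclear genes with a broader range. DUSP4 is not printed.
DUSP5: cacTGTgaggctgggatctccCGT
DUSP6: catTGCttggctggcattagcCGC
DUSP7: cacTGCctggcaggcatcagcCGC
DUSP9: cacTGCttggcgggggtcagcCGT
DUSP8: cacTGTctggctggcatctccCGC
DUSP10: cacTGCcaggctggggtgtccCGC
DUSP16: cacTGTttagctgggatctccCGC
DUSP1: cacTGCcaggcaggcatttccCGG
DUSP2: cacTGCcaggcgggtatctcgCGC

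Over the 45 pairs of genes, 15 to 22 of these 24 bases were identical, with a median of 18. DUSP8 and DUSP16 shared 21 of the 24, DUSP6 and DUSP7 shared 20, and DUSP7 and DUSP9 shared 19. Over the whole coding sequences, the longest run of bases shared exactly by any pair was 24 bases, between DUSP7 and DUSP9. That run is not the printed window, where these genes differ. DUSP5 and DUSP8 have processed pseudogenes that also received counts, and how reads matching more than one place were handled is not given in the sources used here. DUSP5P1 had 6 to 11 counts per library with DMSO, 11 to 15 with compound 1 and 19 to 37 with SCH772984. DUSP8P5 had 8 to 9, 5 to 15 and 11 to 52 counts in the same order. The counts of DUSP5 and DUSP8 are uncertain for this reason, by an amount that is not known.

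The genes lie apart in the genome (GRCh38, GENCODE release 29). DUSP6 is at chr12:89347232-89353271, DUSP16 at chr12:12474210-12562383, DUSP7 at chr3:52048919-52056550 and DUSP1 at chr5:172768090-172771195, all on the minus strand. DUSP2 at chr2:96143166-96145440, DUSP8 at chr11:1554044-1571920 and DUSP10 at chr1:221701424-221742176 are also on the minus strand. DUSP5 at chr10:110497838-110511544 and DUSP9 at chrX:153642492-153651326 are on the plus strand. An antisense gene, AC024909.2, shares 1875 exon bases with DUSP6, 40.48% of the DUSP6 exons. It had 0 to 2 counts per library. Because the strand setting of the counting is not given in the sources used here, reads of the pair cannot be told apart over those bases, and the level of DUSP6 relative to other genes is uncertain. An antisense gene opposite DUSP8, KRTAP5-AS1, shares none of its exon bases and had 0 to 1 counts per library with DMSO or compound 1 and 7 to 17 with SCH772984.

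Library totals were 9464432 to 10286223 counts with DMSO, 9652741 to 9840769 with compound 1 and 11056977 to 13887859 with SCH772984. Compound 1 replicate 1 stood apart from the other libraries of its group, with a chi-square per degree of freedom of 8.29 to 11.1 against them, where those libraries differed from each other by 2.78, the DMSO libraries by 2.44 to 3.33 and the SCH772984 libraries by 4.31 to 6.97. Markers of the labelled cell type were present in part. With DMSO, keratins KRT8 and KRT18 averaged 2491 and 881 CPM (read counts scaled to a common library size), SOX9 126 CPM and the mesenchymal filament VIM 2476 CPM, while EPCAM and CDH1 had 0 counts. The other mesenchymal marker, CDH2, had at most 1 count in any library, and of the other duct markers CFTR had 0 counts and KRT7 had 0 to 5. The summed level of the 5 epithelial markers was 3469 to 3734 CPM with DMSO, 2972 to 3743 CPM with compound 1 and 1131 to 1279 CPM with SCH772984. With SCH772984 KRT8 and KRT18 had log2 fold changes of −1.69 and −2.40, while KRT19 had 0.11, with 252 CPM on average with DMSO and 273 CPM with SCH772984, and did not pass the test. SOX9, the one of 3 duct markers that could be tested, fell to 56.0 CPM (log2 fold change −1.18, adjusted p = 2.62e-19). Of 2 fibroblast markers, DCN had 0 to 1 counts in any library, and COL1A1 had 1 to 4 counts with DMSO or compound 1 and 28 to 48 with SCH772984. The 3 acinar, 2 endocrine, 2 leukocyte and 1 endothelial markers had at most 1 count per library. The part of these marker changes in the results was not tested. In RNA from bulk cultures, fewer cells of a kind and less of a transcript per cell cannot be told apart.

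Of the 10 phosphatase genes, 9 were detected in these cells. Levels of different genes are compared as CPM per kilobase of exon length, so that long transcripts do not count as more abundant. With DMSO, DUSP7 was the most abundant of the 10 at 24.7 ± 2.23 CPM per kb (mean ± SD, n = 3, as below), above 92.8% of all genes with a count in any library. DUSP1, an immediate-early gene, followed at 14.8 ± 0.211 CPM per kb, DUSP2 at 7.18 ± 1.43, DUSP16 at 4.18 ± 0.468 and DUSP5 at 1.85 ± 0.0672 CPM per kb. The ranges of each of these 5 genes did not overlap those of its neighbours in this order. DUSP6 at 0.896 ± 0.305 CPM per kb, DUSP8 at 0.707 ± 0.201 and DUSP9 at 0.447 ± 0.176 came next, and neighbours among these 3 overlapped in their ranges over libraries. DUSP4 was lower still at 0.0946 ± 0.0340 CPM per kb. DUSP10 had 0 counts in all 9 libraries, where 3 counts, the limit that a count of 0 allows, correspond to 0.201 to 0.331 CPM depending on the library. With compound 1 the genes stood in the same order, from DUSP7 at 20.9 ± 2.16 CPM per kb to DUSP10 at 0.

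With SCH772984 the order was different. DUSP2 was now first at 31.6 ± 3.29 CPM per kb, above 95.7% of genes with a count, and DUSP1 was second at 14.0 ± 0.469. DUSP16 at 6.03 ± 0.251 CPM per kb stood above DUSP7 at 3.61 ± 0.204, which was followed by DUSP8 at 1.84 ± 0.342, DUSP9 at 1.03 ± 0.176 and DUSP5 at 0.165 ± 0.0907. The ranges of these 7 genes did not overlap. DUSP4 and DUSP6 were at 0.00775 and 0.00607 CPM per kb and could not be ordered.

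**Figure D1:**
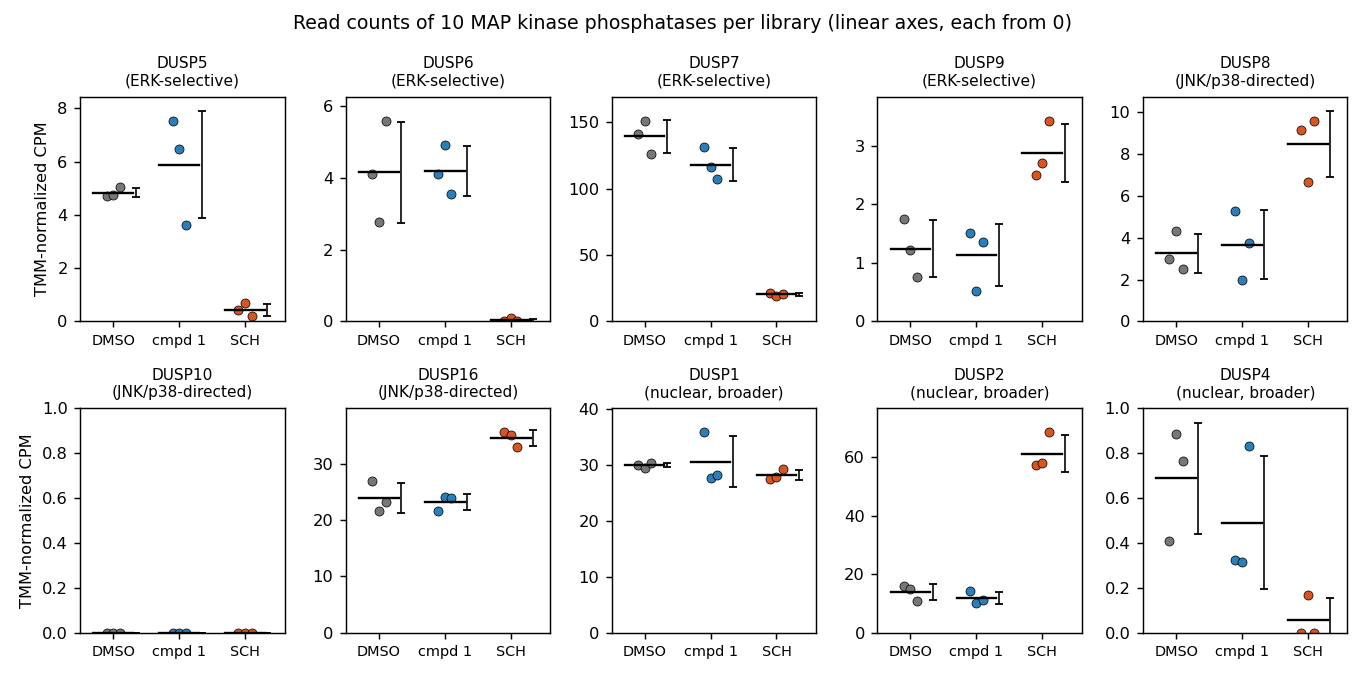
TMM-normalized CPM of each phosphatase gene (vertical axis, linear, a separate scale from 0 for each gene) in the 3 libraries of each condition, DMSO, compound 1 (cmpd 1) and SCH772984 (SCH). Points are libraries, horizontal lines are means and bars are ± 1 SD, ended at 0 where they would pass it. DUSP5, DUSP6 and DUSP7 lie near the bottom of their panels with SCH772984, DUSP2, DUSP8, DUSP9 and DUSP16 lie above their DMSO libraries, and DUSP10 is at 0 throughout.

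Among the 8 members that could be tested, the largest fitted changes with the ERK inhibitor SCH772984 were falls in ERK-selective phosphatases. DUSP6, DUSP5 and DUSP7 fell, by 6.82, 3.51 and 2.78 on the log2 scale, while the remaining ERK-selective gene, DUSP9, rose by 1.20. Of the JNK/p38-directed genes, both that could be tested rose, DUSP8 by 1.38 and DUSP16 by 0.52. Of the nuclear genes with a broader range, DUSP2 rose by 2.13, and DUSP1 did not pass the test. Calls were made by edgeR's quasi-likelihood test over all genes that passed the filter on low counts, at a Benjamini-Hochberg adjusted p under 0.05. Of the 10 members 8 passed that filter (not DUSP4 and DUSP10), and 3 were called lower and 4 higher. SCH772984 moved much of the transcriptome, with 35.5% of the 13834 genes tested called lower and 37.2% called higher, 72.8% in all, so the 7 of 8 members called is a share near the background. Requiring a 2-fold change, 3 members were lower and 3 higher, against 10.6% and 18.2% of all genes. With library size alone in place of TMM scaling, the median over all genes shifts by 0.17 (log2) and the split over all genes becomes 3911 lower to 6242 higher, from 4916 to 5150.

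DUSP6, the cytoplasmic phosphatase that is the best known feedback inhibitor of ERK, was all but lost. It had 40, 25 and 51 counts in the DMSO libraries and 0, 1 and 0 counts with SCH772984. Its log2 fold change was −6.82 ± 0.63 (SE, adjusted p = 4.30e-13), rank 2 from the lowest among the 13834 genes tested. With 1 count in total on one side, the size of this fall is poorly bounded, and the ratio of DMSO to SCH772984 from the summed counts was 161 with an exact 95% interval of 28.3 to 6411, covering counting error only. Without SCH772984 replicate 2, the library with that count, DUSP6 had 0 counts with the inhibitor, and the fitted value of −8.52 depends on the prior count.

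DUSP5, the nuclear phosphatase that also holds ERK in the nucleus, had 46, 43 and 46 counts with DMSO and 5, 8 and 3 with SCH772984. In CPM these were 4.72, 4.75 and 5.04 against 0.416, 0.675 and 0.201. The lowest DMSO library was thus well above the highest inhibitor library. The log2 fold change was −3.51 ± 0.38 (SE, adjusted p = 2.82e-11), an 11.4-fold fall. The size of this fall could depend on how any reads matching both DUSP5 and the pseudogene DUSP5P1 were assigned. Whether such reads were present was not tested. The counts of both together were 52 to 56 with DMSO and 24 to 40 with SCH772984, a 2.21-fold lower mean CPM. For DUSP8 and DUSP8P5 together the mean CPM was 2.59-fold higher.

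DUSP7, the close relative of DUSP6 and the main ERK-selective transcript of these cells, gave the most precise estimate because of its depth, 1152 to 1375 counts per DMSO library. It stood at 141, 151 and 126 CPM with DMSO and at 21.1, 19.1 and 21.0 CPM with SCH772984. The groups were far apart, and the log2 fold change was −2.78 ± 0.08 (SE, adjusted p = 3.91e-30), a 6.85-fold fall. DUSP7 ranked 79 from the lowest among all genes tested.

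DUSP9, a cytoplasmic ERK phosphatase known mainly from placenta and kidney, moved the other way. It had 17, 11 and 7 counts with DMSO and 30, 32 and 51 with SCH772984, or 1.74, 1.21 and 0.766 CPM against 2.49, 2.70 and 3.42 CPM. All inhibitor libraries lay above all DMSO libraries. The rise was 2.29-fold, with a log2 fold change of 1.20 ± 0.34 (SE, adjusted p = 0.00199). The count ratio of DUSP7 to DUSP9 was 80.9, 124 and 165 in the DMSO libraries and 8.47, 7.06 and 6.14 with SCH772984, a difference that needs no scaling between libraries.

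Both JNK/p38-directed genes that could be tested, DUSP8 and DUSP16, were higher with SCH772984. DUSP8, which is best known from brain and heart, was at 2.97, 4.31 and 2.52 CPM with DMSO and at 9.15, 6.67 and 9.60 CPM with SCH772984, and the groups did not overlap, as for DUSP9, DUSP16 and DUSP2 and for 38% of all genes tested in this direction. Its log2 fold change was 1.38 ± 0.22 (SE, adjusted p = 3.47e-07), a 2.59-fold rise. DUSP16, also called MKP-7, a phosphatase of JNK and p38 that shuttles between nucleus and cytoplasm, was at 26.9, 21.6 and 23.2 CPM with DMSO and at 35.6, 35.1 and 32.9 CPM with SCH772984. Its rise was 1.44-fold (log2 fold change 0.52 ± 0.10 SE, adjusted p = 1.59e-05) and so did not reach 2-fold. DUSP10, known as MKP-5, had no counts in either group.

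Among the nuclear phosphatases with a broader range, DUSP2 had the largest rise of the 8 tested members. DUSP2, also called PAC-1 and first described in activated T cells, was at 15.9, 15.0 and 10.7 CPM with DMSO and at 57.1, 57.8 and 68.5 CPM with SCH772984. Every inhibitor library was far above every DMSO library, with a log2 fold change of 2.13 ± 0.11 (SE, adjusted p = 1.19e-19), a 4.39-fold rise. DUSP1, or MKP-1, the stress-induced phosphatase of p38, JNK and ERK, was at 30.0, 29.5 and 30.3 CPM with DMSO and at 27.5, 27.8 and 29.3 CPM with SCH772984. The inhibitor libraries lay just below the DMSO libraries, as they did for 36.3% of all genes tested. The log2 fold change was −0.09 ± 0.10 (SE, 95% interval −0.29 to 0.11, adjusted p = 0.405), and it was 0.083 with library size alone, so no direction is given. The count ratio of DUSP2 to DUSP1 was 0.529, 0.509 and 0.354 with DMSO and 2.08, 2.08 and 2.34 with SCH772984.

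DUSP4, the nuclear phosphatase also called MKP-2, was too low for the filter, with 4, 8 and 7 counts with DMSO and 0, 2 and 0 with SCH772984. The ratio of DMSO to SCH772984 from the summed counts of 19 and 2 was 13.2, with an exact 95% interval of 3.18 to 117. In a fit without the filter its log2 fold change was −3.49 ± 1.02 (SE, adjusted p = 0.00209).

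**Figure D2:**
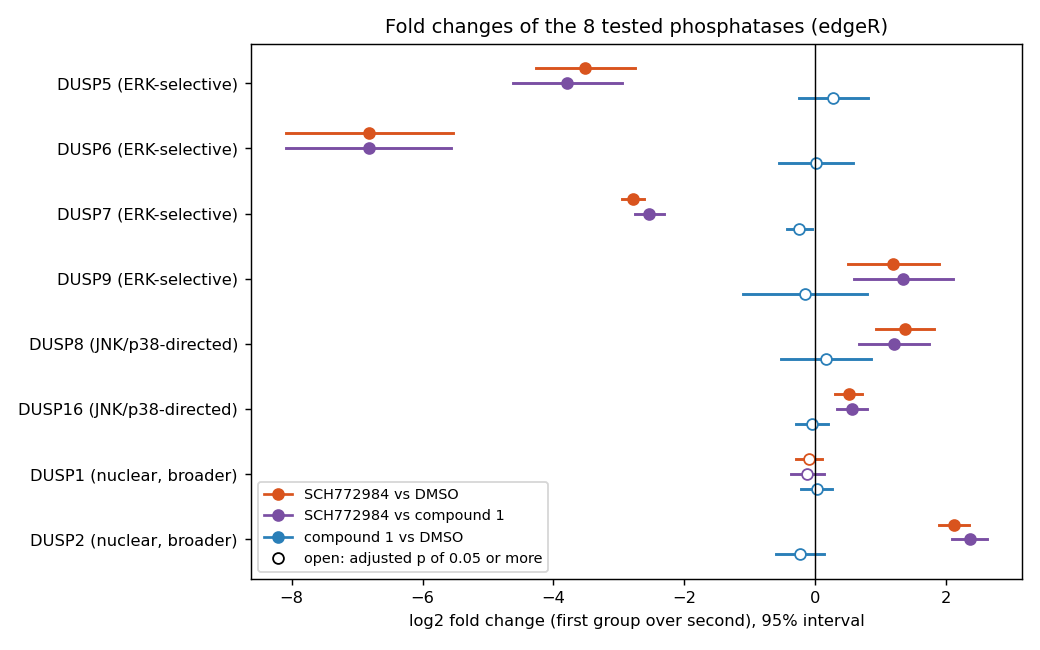
Log2 fold changes (horizontal axis) of the 8 tested phosphatase genes with 95% intervals from edgeR, for SCH772984 against DMSO (orange), SCH772984 against compound 1 (purple) and compound 1 against DMSO (blue). Filled points have an adjusted p under 0.05. DUSP5, DUSP6 and DUSP7 lie far to the left and DUSP2 to the right in both comparisons of SCH772984, and all blue points are open.

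By class, the median log2 fold change with SCH772984 was −3.14 over the 4 ERK-selective genes, 0.95 over the 2 tested JNK/p38-directed genes and 1.02 over the 2 tested nuclear genes, beside 0.03 over all genes tested. The medians hide DUSP9 in the first class and DUSP1 in the third, and that of the third leaves out DUSP4, which was not in this fit and had −3.49 in the fit without the filter. Summed as CPM per kb, the family total was 54.9 ± 3.34 with DMSO, 50.7 ± 6.01 with compound 1 and 58.3 ± 3.90 with SCH772984, and the ranges over libraries overlapped. Without division by gene length the total was lower with SCH772984, at 150.1 to 164.9 CPM, than with DMSO, at 205.0 to 231.2 CPM, and these ranges did not overlap, so no direction is given for the total. Its makeup differed between conditions. The ERK-selective genes held 50.8% ± 1.19 of the summed level with DMSO and 8.27% ± 0.263 with SCH772984. The JNK/p38-directed genes held 8.90% ± 0.561 and 13.5% ± 1.06, and the nuclear genes held 40.3% ± 0.633 and 78.2% ± 1.33. These shares rest mainly on 2 genes, since DUSP7 went from 44.9% to 6.21% of the total and DUSP2 from 13.0% to 54.2%.

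The ratio of the ERK-selective to the JNK/p38-directed sum, which is free of scaling between libraries, was 5.30, 6.28 and 5.60 in the DMSO libraries. With SCH772984 it was 0.585, 0.611 and 0.643, so the JNK/p38-directed transcripts outnumbered the ERK-selective ones in each of these libraries. With compound 1 the ratio was 5.60, 5.24 and 4.33, and its range overlapped that with DMSO. The same held for the main gene of each class alone. The count ratio of DUSP7 to DUSP16 was 5.25, 6.99 and 5.43 with DMSO, 6.07, 4.82 and 4.48 with compound 1 and 0.594, 0.543 and 0.639 with SCH772984.

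**Figure D3:**
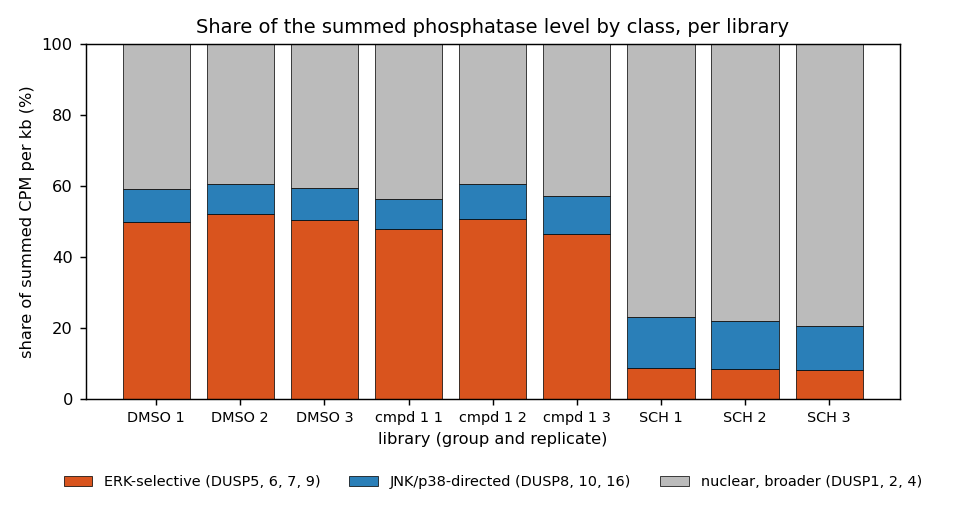
Share of the summed CPM per kb of the 10 phosphatase genes (vertical axis, percent) held by each class in each of the 9 libraries (horizontal axis). The ERK-selective share is 46.4% to 52.1% in the DMSO and compound 1 (cmpd 1) libraries and 8.01% to 8.54% in the SCH772984 (SCH) libraries, where the nuclear genes hold 76.9% to 79.5%.

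No phosphatase transcript passed the test with compound 1. By edgeR 0 of the 8 tested members were called in either direction, where 0.374% of the 12849 genes tested were called lower and 0.49% higher. DESeq2 called 0 of the 6 members to which it gave an adjusted p, and gave none to DUSP8 and DUSP9. At an unadjusted p under 0.05 edgeR passed 1 of the 8, where 15% of all genes passed. The 95% intervals of the 8 log2 fold changes lay between −1.10 and 0.85. With library size alone the split over all genes becomes 25 lower to 85 higher, from 48 to 63.

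The member with an unadjusted p under 0.05 was DUSP7, the main ERK-selective transcript. It was at 131, 116 and 107 CPM with compound 1, and the first of these lay within the DMSO range of 126 to 151 CPM. Its log2 fold change was −0.24 ± 0.09 (SE, 95% interval −0.42 to −0.049, adjusted p = 0.211). Without compound 1 replicate 1, the library that stood apart, it was −0.31 with an adjusted p of 0.00186, which is a call, and 798 genes were then called lower where 48 were with all libraries.

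For the well counted members the intervals were narrow. DUSP1 was at 35.8, 27.6 and 28.3 CPM with compound 1, the first library above all DMSO libraries and the others below them, and its log2 fold change was 0.03 (95% interval −0.21 to 0.27). DUSP16 was at 21.6, 24.1 and 23.9 CPM, the first level with the lowest DMSO library and the others within the DMSO range, with −0.04 (−0.29 to 0.21). DUSP2 was at 14.1, 10.2 and 11.2 CPM, and its log2 fold change was −0.23 (−0.59 to 0.13).

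The low members left room for larger differences. DUSP6 was at 4.09, 4.91 and 3.53 CPM with compound 1, all within the DMSO range of 2.76 to 5.58 CPM, with a log2 fold change of 0.01 (95% interval −0.55 to 0.58). DUSP5 was at 7.54, 6.47 and 3.64 CPM, with libraries on both sides of the DMSO range and a log2 fold change of 0.28 (−0.24 to 0.81). DUSP8 was at 5.27, 1.98 and 3.74 CPM and DUSP9 at 1.51, 0.522 and 1.35 CPM, both overlapping their DMSO ranges, with log2 fold changes of 0.17 (−0.52 to 0.85) and −0.15 (−1.10 to 0.81). DUSP4 had 3, 3 and 8 counts, and its count ratio of DMSO to compound 1 was 1.38, with an exact 95% interval of 0.658 to 2.98. These genes had 3 to 70 counts per library, and differences within the intervals could not be detected at this depth and spread between libraries.

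The direct comparison of the inhibitors, which uses no DMSO library, again called 3 members lower and 4 higher with SCH772984, where 32.6% of the 13863 genes tested were called lower and 33.7% higher. It shares the SCH772984 libraries with the first comparison. DUSP6 was lower than with compound 1 by a log2 fold change of −6.82 ± 0.60 (SE, adjusted p = 3.75e-09). As against DMSO, its size is poorly bounded, with a count ratio of 162 (exact 95% interval 28.5 to 6449.8) and a fitted value of −8.54 without SCH772984 replicate 2. DUSP5 had −3.79 ± 0.40 (adjusted p = 5.34e-08) and DUSP7 −2.53 ± 0.11 (5.87e-14). The genes that were higher had log2 fold changes of 2.37 ± 0.13 for DUSP2 (adjusted p = 2.11e-12), 1.35 ± 0.36 for DUSP9 (0.00250), 1.22 ± 0.26 for DUSP8 (0.000307) and 0.57 ± 0.11 for DUSP16 (0.000142). DUSP1 had −0.11 ± 0.12 (adjusted p = 0.408), and its groups overlapped.

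The promoters were searched for motifs of factors that act downstream of MAP kinases or of TBK1. RefSeq promoter entries (GRCh38.p14) were at hand for 8 of the 10 genes, all but DUSP4 and DUSP5, as 10 entries, and the 250 bases before each start were read on both strands. The DUSP6 window lies wholly within an exon of DUSP6 in GENCODE, so the bases before the GENCODE start of that gene were not searched. The cyclic AMP response element TGACGTCA, bound by CREB and ATF factors, was found in DUSP1 and DUSP8 and in 1.646% of all 35116 promoters. It lay 125 bases before the start of DUSP1, and 118 and 74 bases before the start of DUSP8. These windows are given because DUSP8 rose with SCH772984 while DUSP1, with the same motif, did not pass the test. The motif is in capitals, and both genes are on the minus strand, at chr5:172771196-172771445 for DUSP1 and chr11:1572272-1572521 for DUSP8.
DUSP1: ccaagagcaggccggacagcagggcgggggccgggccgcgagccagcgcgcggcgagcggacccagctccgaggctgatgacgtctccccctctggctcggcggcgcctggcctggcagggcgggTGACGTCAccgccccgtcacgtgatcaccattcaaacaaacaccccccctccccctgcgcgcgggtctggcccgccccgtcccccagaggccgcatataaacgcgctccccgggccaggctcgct
DUSP8: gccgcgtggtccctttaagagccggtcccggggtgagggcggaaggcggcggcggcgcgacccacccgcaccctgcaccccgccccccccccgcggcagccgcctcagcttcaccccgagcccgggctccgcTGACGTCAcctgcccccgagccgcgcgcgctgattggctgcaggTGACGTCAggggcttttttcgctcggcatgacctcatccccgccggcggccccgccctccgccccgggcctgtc

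None of the 10 entries held the ETS letters CCGGAAG (8.517% of all promoters), the AP-1 letters TGANTCA (6.573%), a CArG box (1.159%) or a κB site (5.206%), so no other searched motif overlapped the capitals. A match of letters is a description of the window, and factors binding there were not measured.

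Beside the phosphatases, the list of ERK output genes held 18 genes that encode other proteins, all tested, of which 15 fell and 2 rose with SCH772984, where 35.5% of all genes fell and 37.2% rose, with a median log2 fold change of −2.63. SPRY4, a Sprouty inhibitor of receptor signalling, fell by 6.81 (SE 0.11, adjusted p = 6.44e-40). ETV5, an ETS factor, fell by 6.54 (SE 0.15, adjusted p = 1.55e-34) and FOSL1, an AP-1 subunit, fell by 5.94 (SE 0.15, adjusted p = 5.09e-26). With compound 1 none of the 18 was called by edgeR, 5 were lower and 3 higher at an unadjusted p under 0.05, which 15% of all genes passed, and the median was −0.05. The smallest p values were those of EPHA4, an ephrin receptor, at −0.28 (adjusted p = 0.109) and of ETV1 at 0.46 (adjusted p = 0.129).

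Of 6 serine/threonine phosphatases that act on MAP kinases, 3 fell with SCH772984 and none rose, where 72.8% of all genes were called, with a median of −0.42 and a range of −0.89 to 0.19 on the log2 scale. These were PPP2CA and PPP2CB, the catalytic subunits of PP2A, at −0.89 and −0.73 on the log2 scale, and PPP5C at −0.70. The tyrosine phosphatases PTPN5, PTPN7 and PTPRR, which bind MAP kinases through a kinase interaction motif, had 0 to 3 counts in any library and were not tested. Of 18 atypical dual-specificity phosphatases, most of which lack the MAP kinase binding domain, 13 were tested. Of these, 2 fell and 6 rose, a share under the 72.8% called among all genes, with a median of 0.29. The largest changes were in DUSP15 at 1.79, DUSP3, also called VHR, at 1.17 and DUSP19 at 1.08. DUSP3 rose from 782 to 849 counts per library with DMSO to 2263 to 3017 with SCH772984, and DUSP15 from 2 to 13 counts to 27 to 45.

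Of 14 MAP kinase genes 12 were tested with SCH772984, and 4 fell and 4 rose, with a median of −0.04. These shares are near those of all genes, 35.5% lower and 37.2% higher. The largest changes were in MAPK15 at 2.46, MAPK11, which encodes p38β, at 0.89 and MAPK3, which encodes ERK1, at 0.67. All 6 tested MAP2K genes, the kinases that phosphorylate MAP kinases, were called, 4 lower and 2 higher, with MAP2K3 at −1.23, MAP2K2 at 0.73 and MAP2K1 at −0.63. With compound 1 none of the MAP kinases, MAP2Ks, serine/threonine phosphatases or atypical phosphatases was called by edgeR, where 0.374% of all genes were called lower and 0.49% higher. At an unadjusted p under 0.05, which 15% of all genes passed, there were 1 of 11, 0 of 6, 0 of 6 and 1 of 12. The atypical phosphatase was DUSP11, an RNA phosphatase, at 0.28 (adjusted p = 0.231). Other genes with small p values in their lists were NLK at 0.17, MAP2K4 at −0.13, MAP2K5 at −0.22, PPM1B at 0.26, PPP2CB at 0.12 and STYX at 0.12, and the lowest adjusted p among them was 0.394, for PPM1B.

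**Figure D4:**
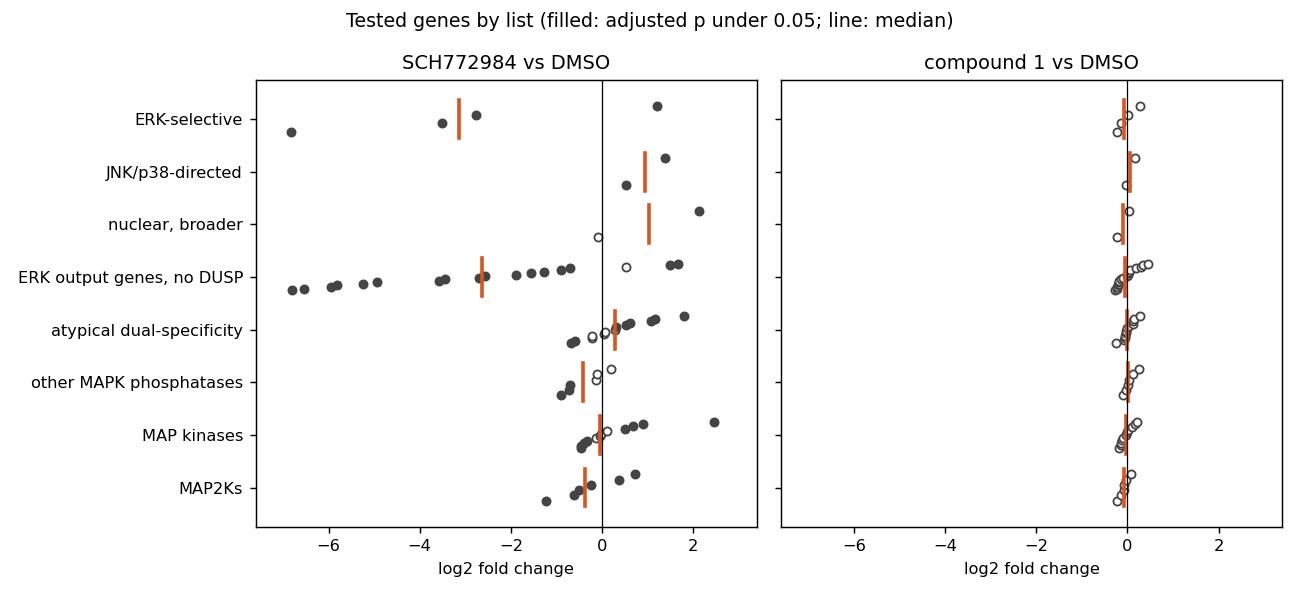
Log2 fold changes (horizontal axis) of the tested genes of each phosphatase class and pathway list, with SCH772984 (left) and compound 1 (right) against DMSO. Points are genes, filled where the adjusted p is under 0.05, and orange lines are medians. With SCH772984 the ERK output genes have a median of −2.63 and the ERK-selective phosphatases one of −3.14, and with compound 1 no point is filled.

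The genes nearest to DUSP6 in pattern were sought among 10477 genes averaging at least 5 CPM, by the Euclidean distance over the 9 libraries between log2 CPM centred on the DMSO mean. They were NTSR1, a neurotensin receptor, at a distance of 1.07, NRROS, a regulator of reactive oxygen species, at 1.21 and the chemokine gene CXCL1 at 1.21. Their log2 fold changes with SCH772984 were −4.48, −4.14 and −4.68. With compound 1 they were 0.01, −0.0039 and 0.31, and that of CXCL1 had an adjusted p of 0.0722 in edgeR's test. DUSP6 is itself so low with SCH772984 that its distance depends on the prior count of 2. DUSP10 has no pattern to compare.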

How the data were processed

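The authors deposited whole-number read counts per gene, without normalization, for 9 libraries of total RNA that Novogene prepared and sequenced. Per the labels, the submitters' processing notes list HISAT2 2.0.5, featureCounts 1.5.0-p3 and hg38. The annotation and strand setting are not given in the sources used here. All 58735 gene identifiers matched GENCODE release 29, and 29048 genes had a count. The deposited table also gives the exon length of each gene, an annotation value used for CPM per kb. Libraries were grouped by their labels, and p-values measure only the spread between them, which may be technical.

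Each pair of groups was fitted separately with edgeR 4.0.16 in R 4.3.3 (quasi-likelihood, robust, two-sided) with TMM factors, on genes kept by filterByExpr at its default minimums of 10 counts and 15 in total. Calls were made at a Benjamini-Hochberg adjusted p under 0.05 over all genes tested. The steps were tested on simulated data. Printed CPM use TMM factors over all 9 libraries. Totals of 9464432 to 13887859 counts make 1 count 0.0671 to 0.110 CPM. Counting intervals are exact binomial, and they and the limit of 3 counts cover counting error only.

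The genes, their classes, the pathway lists and the tests were chosen with earlier results of these data known. Named were all 10 members, from each pathway list at most the 3 genes with the largest called change with SCH772984 and the 2 with the smallest p with compound 1, and the 3 genes nearest to DUSP6 in pattern. A gene that the rule names is not reported here. Markers are named as a check of the cell type. The sums with pseudogenes and the ratios of DUSP7 to DUSP16 and to DUSP9 and of DUSP2 to DUSP1 were chosen after the values were seen, since the planned ratio of DUSP6 to DUSP10 has no value with DUSP10 at 0. Alternatives were library size alone, RLE factors, no filter, DESeq2 1.42.0, a floor of 10 counts per library, a joint fit of all 9 libraries, a replicate block, protein-coding genes only, an unadjusted p, a 2-fold minimum, leaving out each library, and class shares without gene length.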

Additional observations from a re-analysis of the deposited data

How the results depend on the processing

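With SCH772984 the 3 members called lower and the 4 called higher kept those numbers, against DMSO and against compound 1, under every alternative and with any library left out, with the following exceptions. A minimum of 10 counts in every library left 1 called lower and 3 higher in each comparison, because DUSP5, DUSP6 and DUSP9 were then not tested. Without the filter 4 were called lower, as DUSP4 was then tested. At 2-fold or more 3 were called higher, without DUSP16 (0.52 and 0.57). With compound 1 the number called lower, 0, became 1 (DUSP7) at an unadjusted p and 0 to 1 with a library left out. DUSP1 turned to 0.083 against DMSO and 0.024 against compound 1 with library size alone, and lay between −0.19 and 0.012 against compound 1 with a library left out. Members that were not called with compound 1 changed sign with a library left out, with ranges of −0.21 to 0.28 for DUSP6, −0.40 to 0.19 for DUSP9, −0.18 to 0.46 for DUSP8, −0.11 to 0.051 for DUSP16 and −0.096 to 0.093 for DUSP1. Without gene length, the shares with DMSO, compound 1 and SCH772984 were 67.6%, 64.9% and 15.2% for the ERK-selective class, 12.3%, 13.6% and 27.6% for the JNK/p38-directed class and 20.1%, 21.5% and 57.2% for the nuclear class, in CPM, by construction, as the genes differ in length.

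Over all genes, the numbers called lower and higher with compound 1, 48 and 63, depended on the setting. They were 228 and 189 without the filter, 97 and 91 with all 9 libraries and 32 and 38 with protein-coding genes only. By DESeq2 they were 119 and 117, at an unadjusted p 988 and 945, and at 2-fold or more 0 and 6. With a library left out they were between 3 and 798 lower and between 5 and 453 higher. With SCH772984 a 2-fold change left 1472 lower and 2517 higher against DMSO and 1396 and 2293 against compound 1. Same-numbered libraries did not deviate together (correlations of −0.09 to 0.13), so the numbers do not pair the samples. With the replicate block 3 members were lower and 4 higher with SCH772984, and 0 with compound 1, where 219 genes were lower and 193 higher. The ratio of DUSP6 to DUSP10 could not be computed. Depth limits DUSP4, DUSP9 and, with SCH772984, DUSP5 and DUSP6.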
